A study of Mus musculus with 15 samples.

Results

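Tumor-associated macrophages (TAMs) sorted from mouse hepatocellular carcinoma (HCC) with overexpressed miR-451a were compared with TAMs sorted from control HCC. The 10 samples, 5 of each group, were taken by the tumor genotype in their labels out of 15 samples in the series, while the comparison itself was chosen with earlier results of these data known. The tumors grew from Hepa1-6 cells, a mouse hepatoma line that here expressed luciferase, after infection with a lentivirus for miR-451a or a control lentivirus and inoculation into the liver of C57BL/6 mice. The microRNA was thus delivered to the tumor cells, while the RNA came from the macrophages around them. The other 5 samples are TAMs from tumors with overexpressed miR-144, which enter the last comparison, an alternative fit over all 3 groups and the check of the microRNA genes. TAMs were taken by flow cytometry with antibodies against CD11b and F4/80, the products of Itgam and Adgre1. The age and the sex of the mice are not given in the labels. No source used here names more than 1 infected line per group, so tumor line and microRNA cannot be told apart. A legend of plots made from this sequencing has n = 3, whereas the labels list 5 samples per group, all of which were used. Nothing says that the 5 samples of a group came from separate mice, so p-values measure only the spread between these samples, which may be technical.

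TAMs are macrophages of the tumor stroma, fed by circulating monocytes and by resident cells of the organ. Interleukins 4 and 13 acting through STAT6 raise the genes of alternative activation, which include chitinase-like and resistin-like proteins, whereas interferons raise antiviral genes, immune GTPases and the machinery of antigen presentation. A microRNA such as miR-451a pairs through its seed with matching sites in messenger RNA and lowers the output of those messages.

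The mature mouse miR-451a is shown because it is the only factor by which the labels separate the tumors, with its seed, bases 2 to 8, in capitals (RefSeq, GRCm38.p6, chr11:78073186-78073207, plus strand).
mmu-miR-451a: aAACCGUUaccauuacugaguu
It was the only 1 of 1738 mature mouse miRNAs in the RefSeq table with this seed. The precursor genes Mir451a and Mir144 were listed at 0 in all 15 samples, so the messenger RNA table holds no reading of the microRNA itself.

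All values are FPKM, fragments per kilobase of transcript and scaled to the mapped fragments of the sample, as the authors deposited them. Low values implied a depth of 15.5 to 30.3 M fragments per sample. Pairs of means are written control first and miR-451a second, as mean ± SD over 5 samples, and log2 fold changes were taken after adding 1 to each FPKM value, so that changes of genes near or under 1 FPKM come out too small. Gene coordinates are those of GENCODE M21 on GRCm38, which the sources used here do not name as the build of the deposited values. In a bulk sample, fewer cells of a type and less RNA per cell cannot be told apart. Both groups carried the macrophage genes of the sort. Adgre1, which encodes F4/80, stood at 140.2, 141, 131, 133 and 140.5 FPKM in the control samples and at 336, 350.5, 368, 380.2 and 337 FPKM in the miR-451a samples, with no overlap (log2 fold change 1.36, SE 0.04, adjusted p = 5.58e-10 from limma). Itgam, which encodes CD11b, has a pair of overlapping entries in the table, ENSMUSG00000030786 and ENSMUSG00000108596, between which values jumped from sample to sample. Their sum, formed after this was seen, was 75.4 ± 2.14 FPKM against 116 ± 4.48 FPKM and did not overlap (exact permutation test, two-sided p = 0.00794, the smallest that the splits of 5 against 5 samples can give). Csf1r, the receptor for macrophage colony-stimulating factor, was at 401 ± 6.75 against 693 ± 30.7 FPKM, and Lyz2, the macrophage lysozyme, at 6894 ± 359 against 12582 ± 492 FPKM (log2 fold changes 0.79 and 0.87). Over the 11 entries of the macrophage list, all tested, 7 were higher and 1 lower, beside 47.2% higher and 20.8% lower over all tested genes. The latter was Cd68, a lysosomal glycoprotein of macrophages, at 1444 ± 46.2 against 910.4 ± 57.4 FPKM (log2 fold change -0.67, SE 0.05, adjusted p = 3.19e-07 from limma).

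The marker lists of NK cells, dendritic cells, eosinophils, mast cells and basophils, erythroid cells, and hepatoma and epithelial cells each summed to at most 2.27 FPKM in every sample. Other lists held more, and their counts are to be read against the same 47.2% and 20.8%. Of 10 hepatocyte markers, 8 (among them Alb and Apoa1) were listed at 0 in all 10 samples, and the summed level of that list was carried by Trf, transferrin, at 125 ± 14.3 against 143 ± 21.7 FPKM (log2 fold change 0.18, SE 0.11, adjusted p = 0.148 from limma), a gene with 79.8% of its 50-base stretches in other genes. Trf passed as higher after quantile normalization (adjusted p = 0.0256) or rescaling to TPM (adjusted p = 0.0352). Of 10 T cell markers, 5 were listed at 0 in all 10 samples, and that sum was carried by Cd28 at 26.7 ± 1.16 against 37.3 ± 2.25 FPKM. Cd79a, the defining B cell gene, did not exceed 0.1095 FPKM in any sample, although Ighm, the mu heavy chain, rose from 9.30 ± 1.15 to 89.3 ± 7.68 FPKM. Of the 9 fibroblast markers, 6 were tested and all 6 rose, and their summed level was 129 to 165 FPKM in control and 249 to 322 FPKM in miR-451a samples. Acta2, smooth muscle actin, was at 28.2 ± 5.14 against 81.6 ± 13.4 FPKM and Col1a1, a fibrillar collagen, at 70.02 ± 6.77 against 124 ± 11.8 FPKM. The neutrophil list summed to 78.9 to 95.9 FPKM in control and 48.5 to 57.2 FPKM in miR-451a samples, with both tested members lower, Csf3r, the receptor of granulocyte colony-stimulating factor, at 70.4 ± 5.11 against 48.3 ± 3.45 FPKM and Mmp8, a collagenase, at 15.02 ± 2.09 against 4.10 ± 0.689 FPKM. Ly6g and Elane, defining neutrophil genes, were listed at 0 in all 10 samples. The part of the fibroblast and neutrophil lists in the results below was not tested. Of 9 endothelial markers 2 were tested, of which Vwf fell from 43.5 ± 1.86 to 6.94 ± 0.690 FPKM and Kdr rose from 2.80 ± 0.221 to 4.07 ± 0.729 FPKM. Pecam1 stood at 0.197 ± 0.0430 against 0.163 ± 0.0347 FPKM.

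**Figure D1:**
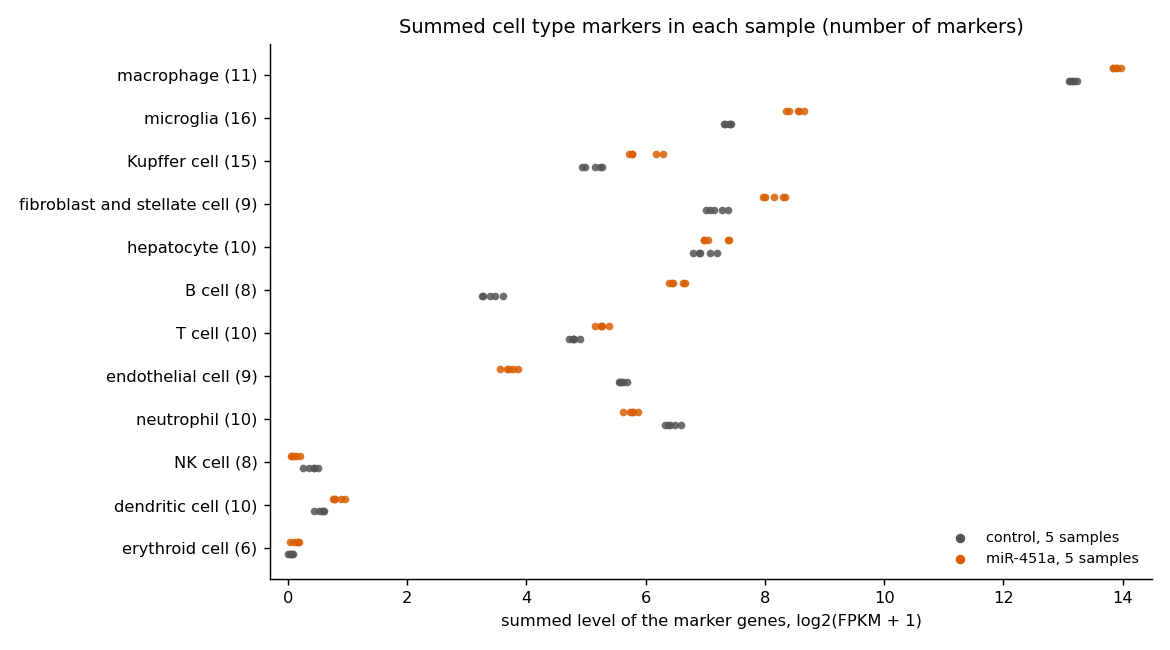
Summed level of the marker genes of each cell type in each of the 10 samples, as log2 of the summed FPKM + 1, with 1 point per sample, control in grey and miR-451a in orange, and the number of markers in brackets. The macrophage list has the highest sum in both groups, the fibroblast and stellate cell list is higher in all 5 miR-451a samples, and the NK cell, dendritic cell and erythroid lists lie near 0.

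Across the transcriptome the groups stood well apart. Of the 11374 genes that averaged 1 FPKM or more over the 10 samples, limma called 7734 (68.0%) at a Benjamini-Hochberg adjusted p under 0.05, of which 5367 were higher in miR-451a TAMs (47.2% of the genes tested) and 2367 lower (20.8%). At least a 2-fold difference was reached by 548 higher genes (4.82%) and 398 lower genes (3.50%). Of the larger differences more were falls. With 1 added to each FPKM value, 9 called genes rose and 41 fell by at least 8-fold, and 0 rose and 10 fell by at least 32-fold. That addition shrinks changes from low levels. In plain ratios of mean FPKM 891 called genes rose and 487 fell by at least 2-fold. By at least 8-fold 51 rose and 75 fell, and by at least 32-fold 4 rose and 29 fell, besides 3 that fell to a listed 0. The values of the groups did not overlap for 6277 genes (55.2%). The median absolute difference between a pair of samples was 0.0702 to 0.0944 on the log2 scale within control, 0.0731 to 0.11 within miR-451a and 0.265 to 0.322 between the groups. Over all tested genes the log2 fold change had a median of 0.13, and the share of called genes that were higher, 69.4%, depended on the scaling. It was 48.6% with each sample centred on its median (3485 higher, 3679 lower), 52.4% after quantile normalization (3742 higher, 3393 lower) and 76.5% after rescaling to TPM (6230 higher, 1909 lower). Counts of members in the lists below are to be read against 47.2% and 20.8%. The lists were chosen with earlier results of these data known, so their counts are not independent evidence.

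**Figure D2:**
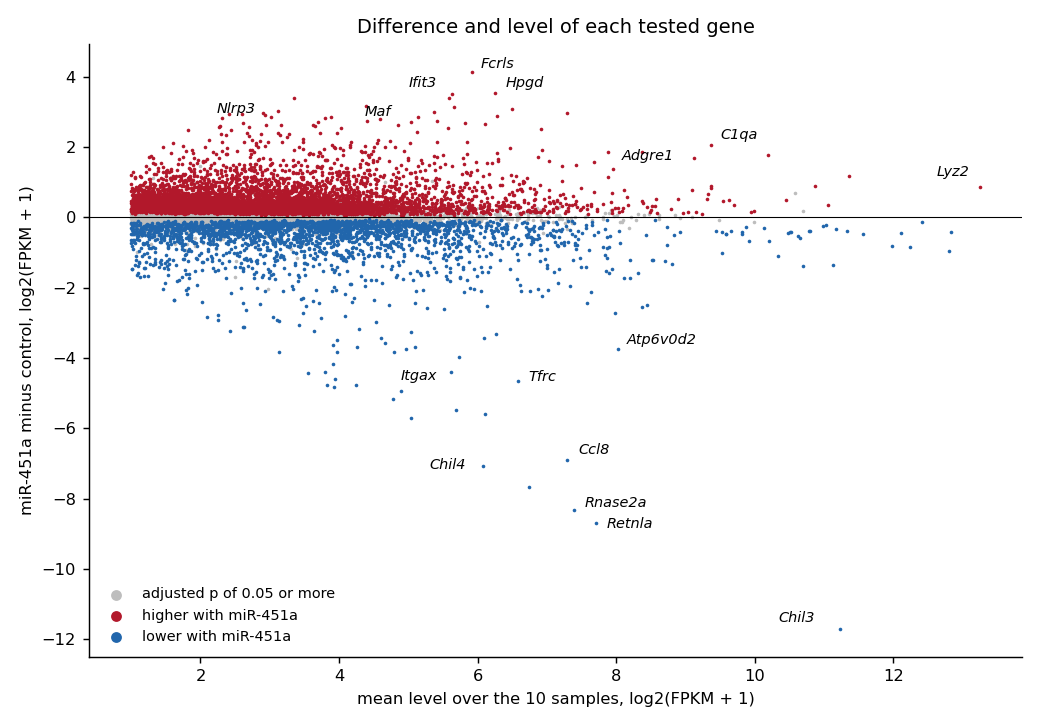
Difference of each of the 11374 tested genes (miR-451a minus control, on the log2(FPKM + 1) scale) against its mean level over the 10 samples on the same scale, with called genes in red (higher) and blue (lower). The cloud of small changes lies mostly above 0, while the largest differences, down to Chil3 at -11.70, are falls of genes that were abundant in control TAMs.

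The share of genes called grew with their level, from 60.6% of those between 1 and 2 FPKM to 82.6% of those at 100 FPKM or more. At 1 to 2 FPKM, 48.0% were higher and 12.5% lower, whereas at 100 FPKM or more 37.5% were higher and 45.2% lower. The abundant lysosomal messages shared in this. Psap, the precursor of the saposins and the most abundant gene of control TAMs, fell from 9445 ± 398 to 4828 ± 282 FPKM, Ctsd (cathepsin D, 36.6% of its 50-base stretches shared with another gene) from 6183 ± 132 to 3469 ± 111 FPKM and Ctss (cathepsin S) from 5141 ± 181 to 2928 ± 204.2 FPKM. Lyz2 replaced Psap as the most abundant gene in miR-451a TAMs. Apoe, the apolipoprotein that macrophages secrete with cholesterol, rose to 3622 ± 693 FPKM from 1603 ± 279 FPKM. The 10 most abundant genes of a sample held 19.2% of all FPKM in control and 16.6% in miR-451a samples on average, and the number of genes at 1 FPKM or more was 11021 against 11502 (two-sided exact permutation p = 0.00794 in both cases).

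The largest falls included many genes that were abundant in control TAMs and near 0 in miR-451a TAMs. Rnase2a, an eosinophil-type ribonuclease (ENSMUSG00000047222, chromosome 14, 51255262 to 51256112, minus strand), was at 319, 337, 352, 369 and 287 FPKM in the control samples and at 0, 0.0656, 0.0681, 0 and 0.0622 FPKM in the miR-451a samples. F10, coagulation factor X, stood at 125, 129, 154, 144.5 and 114 FPKM in control and at 1.66, 1.73, 1.49, 1.62 and 2.36 FPKM in miR-451a samples (log2 fold change -5.60, SE 0.10, adjusted p = 8.86e-12 from limma). Tmem26, a transmembrane protein, was at 53.6 to 72.9 FPKM in control and 0.198 to 0.256 FPKM in miR-451a samples. None of these groups overlapped. Slc7a2, a carrier of cationic amino acids, varied among the control samples, at 39.6, 73.9, 89.7, 44.2 and 34.9 FPKM, and was at 0.614 to 0.888 FPKM with miR-451a. Lipn, a lipase of the acid lipase family, fell from 52.3 ± 3.28 to 0.495 ± 0.220 FPKM, and Bex1 from 99.6 ± 23.3 to 1.24 ± 0.431 FPKM, although 32.8% of the 50-base stretches of Bex1 also occur in Bex4. Cldn11, a claudin of tight junctions, was at 24.2 to 29.3 FPKM in control and listed at 0 in all 5 miR-451a samples.

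On the log2(FPKM + 1) scale the largest rises were smaller and started from low or middling levels. Fcrls, an Fc receptor-like scavenger receptor, was at 5.77, 6.01, 4.39, 4.76 and 6.16 FPKM in control and at 111, 96.3, 129, 142 and 87.2 FPKM in miR-451a samples (log2 fold change 4.14, SE 0.13, adjusted p = 7.04e-10 from limma). Hpgd, which degrades prostaglandins, stood at 13.1, 14.4, 7.57, 7.87 and 13.6 FPKM in control and at 155, 157, 118, 109.9 and 155 FPKM in miR-451a samples (log2 fold change 3.54, SE 0.19, adjusted p = 3.73e-08 from limma). Samples 3 and 4 were the lowest of both groups in Hpgd, and in Fcrls the lowest of control and the highest of miR-451a. Fcrls is at ENSMUSG00000015852, chromosome 3, 87250758 to 87263738, minus strand, and Hpgd at ENSMUSG00000031613, chromosome 8, 56294585 to 56321043, plus strand. Igfbp4, a binding protein of insulin-like growth factors, rose from 7.41 ± 1.02 to 86.3 ± 4.71 FPKM, and Marcksl1, a protein of the actin cortex, from 3.17 ± 0.285 to 36.6 ± 2.27 FPKM. Stab1, a scavenger receptor, was at 27.9 to 38.7 FPKM in control and 254 to 299 FPKM in miR-451a samples, and Clec12a, an inhibitory lectin receptor, at 7.64 to 9.09 and 68.999 to 74.6 FPKM. Gpr34 and F13a1, which encode a lysophospholipid receptor and the A chain of coagulation factor XIII, were at or under 0.360 FPKM in every control sample and at 6.89, 5.83, 12.3, 14.1 and 3.71 FPKM (Gpr34) and 7.46, 8.18, 12.9, 16.1 and 4.59 FPKM (F13a1) in miR-451a samples, where samples 3 and 4 were the highest.

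**Figure D3:**
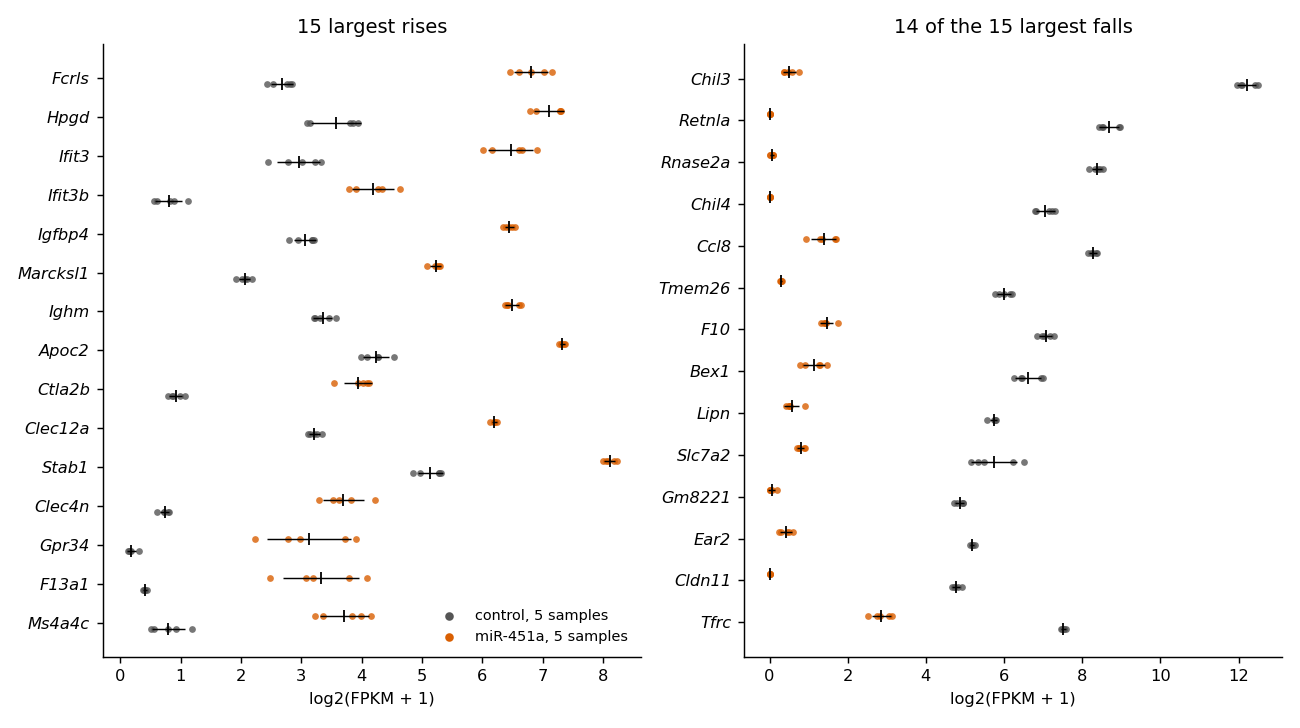
Levels of the 15 genes with the largest rises (left) and of 14 of the 15 with the largest falls (right) in each sample, as log2(FPKM + 1), with 1 point per sample, the mean as a tick and the SD as a bar. The groups do not overlap for any gene shown, and among the falls the miR-451a points of Retnla, Chil4 and Cldn11 lie at 0.

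Presence against near absence was rarer than a change in level. There were 19 genes at or under 0.1 FPKM in all 5 miR-451a samples and at 1 FPKM or more in all 5 control samples, among them Retnla, Rnase2a, Chil4, Cldn11 and Adipoq. Adipoq, adiponectin, was at 17.7 to 23.1 FPKM in control and 0 to 0.0714 FPKM in miR-451a samples. The reverse held for 6 genes, Trpm2, Pram1, Adgre4, Fpr2, Pilrb1 and Gm15523. Trpm2, a calcium channel opened by ADP-ribose, was at 0.0605 to 0.0893 FPKM in control and 1.46 to 2.02 FPKM in miR-451a samples, and Fpr2, a formyl peptide receptor of phagocytes, at 0 to 0.0323 and 1.13 to 2.38 FPKM. Of Pram1 94.5%, of Fpr2 37.2% and of Pilrb1 31.2% of the 50-base stretches also occur in other genes, so their reads may be split.

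Alternative activation was the list with the deepest fall. Of its 23 tested members 19 were lower and 3 higher (median log2 fold change -2.84, against 0.13 over all genes), and 17 fell at least 2-fold. Some of its genes were shown by the study from these samples, so their direction is not independent evidence. Chil3, a chitinase-like lectin of the macrophage (ENSMUSG00000040809, chromosome 3, 106147554 to 106167564, minus strand), went from 4388, 4246, 5779, 5523 and 4011 FPKM in control to 0.295, 0.690, 0.390, 0.299 and 0.481 FPKM in miR-451a samples (log2 fold change -11.70, SE 0.11, adjusted p = 2.48e-13 from limma), although 29.4% of its 50-base stretches are shared with Chil4. Retnla, a secreted resistin-like protein (ENSMUSG00000061100, chromosome 16, 48842551 to 48844461, plus strand), was at 369, 364, 502, 493 and 345 FPKM in control and listed at 0 in all 5 miR-451a samples. In both genes every control sample lay above every miR-451a sample.

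Receptors, regulators and chemokines of the same list followed. Mgl2, a galactose-binding lectin (ENSMUSG00000040950, chromosome 11, 70130329 to 70137550, plus strand), was at 46.8, 53.4, 42.8, 41.7 and 43.6 FPKM in control and at 2.47, 2.48, 3.92, 3.83 and 2.26 FPKM in miR-451a samples (log2 fold change -3.56, SE 0.13, adjusted p = 1.39e-09 from limma). Egr2, a transcription factor induced by interleukin 4, was at 34.2, 33.6, 31.1, 34.996 and 6.93 FPKM in control and at 1.56, 0.491, 1.68, 1.64 and 1.33 FPKM in miR-451a samples (log2 fold change -3.49, SE 0.40, adjusted p = 1.58e-05 from limma). Control sample 5 was far under the other control samples for Egr2 and still above all miR-451a samples. Ccl24, an eosinophil chemokine, fell from 9.98 ± 2.91 to 0.237 ± 0.105 FPKM, Cish, an inhibitor of STAT5 signalling, from 7.38 ± 0.905 to 0.107 ± 0.0441 FPKM, and Flt1, a receptor of vascular endothelial growth factor, from 6.46 ± 0.317 to 0.0449 ± 0.0219 FPKM. Pparg, the nuclear receptor of lipid uptake, fell from 37.4 ± 3.36 to 9.60 ± 0.531 FPKM, and Mrc1, the mannose receptor CD206, from 135 ± 6.53 to 85.03 ± 21.2 FPKM (log2 fold changes -1.85 and -0.70).

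The 3 members that rose are the receptor, the signal transducer and a lectin. Il4ra, the receptor chain for interleukins 4 and 13, was at 12.1, 11.3, 12.3, 11.9 and 11.7 FPKM in control and at 24.7, 24.5, 29.1, 30.01 and 22.3 FPKM in miR-451a samples, with no overlap (log2 fold change 1.07, SE 0.07, adjusted p = 2.86e-07 from limma). Stat6, which carries the signal of this receptor to the nucleus, was at 54.8 ± 0.885 against 66.4 ± 2.18 FPKM (log2 fold change 0.27, adjusted p = 1.06e-05 from limma). Clec10a, the paralog of Mgl2, rose from 9.35 ± 0.906 to 25.9 ± 3.44 FPKM and so moved opposite to it. Fn1, fibronectin, did not pass the test, at 53.0 ± 4.74 against 54.2 ± 14.4 FPKM (adjusted p = 0.993 from limma).

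The promoters of Retnla and Pdcd1lg2 are printed because they hold the spacing to which STAT6 binds, TTC and GAA with any 4 bases between them, in capitals, searched on both strands from 250 bases before to 50 bases after the gene start (RefSeq, GRCm38.p6, 5′ to 3′ on the gene's strand).
Retnla, chr16:48842439-48842498 plus strand: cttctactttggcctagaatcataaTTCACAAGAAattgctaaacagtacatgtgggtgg
Pdcd1lg2, chr19:29410812-29410871 plus strand: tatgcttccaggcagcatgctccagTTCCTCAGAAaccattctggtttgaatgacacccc
Of the 22 genes of the list with a promoter in the RefSeq table, 3 (13.6%) held these letters, Ccl17 being the other, as did 8.01% of all 27025 genes with a promoter there and 6.95% of all 32851 promoters. Counted from the RefSeq gene start, Retnla carried its match 145 bases before and Pdcd1lg2 82 bases before. For Retnla the RefSeq start lies downstream of the GENCODE start given above.

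Interferon-stimulated genes moved together in the other direction. All 50 tested genes of the type I interferon response were called higher (median log2 fold change 1.24), 35 of them at least 2-fold. Under each of the 3 other scalings 50 were called higher as well. The members were chosen with earlier results of these data known, so this share is not independent evidence. Ifit3, which binds viral RNA complexes and signalling proteins, was at 7.03, 8.35, 5.88, 4.43 and 9.05 FPKM in control and at 99.5, 96.9, 70.4, 63.5 and 119.3 FPKM in miR-451a samples (log2 fold change 3.51, SE 0.20, adjusted p = 6.60e-08 from limma), although 51.2% of its 50-base stretches are shared with Ifit3b. Isg15, a ubiquitin-like modifier (ENSMUSG00000035692, chromosome 4, 156199424 to 156200818, minus strand), was at 20.5, 24.9, 15.9, 14.4 and 22.8 FPKM in control and at 58.9, 58.9, 45.1, 45.7 and 77.1 FPKM in miR-451a samples (log2 fold change 1.49, SE 0.18, adjusted p = 2.18e-05 from limma). In both genes the control samples 3 and 4 and the miR-451a samples 3 and 4 were the lowest of their groups, and the groups did not overlap.

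The rise covered effectors, sensors and the transcription factors of the pathway. Mx1, a dynamin-like GTPase against influenza viruses, was at 1.14 ± 0.252 against 12.3 ± 2.51 FPKM, and Ifit2 at 6.91 ± 0.919 against 48.6 ± 9.84 FPKM (log2 fold changes 2.62 and 2.63). Irf7, the regulator that amplifies interferon production, was at 9.13, 9.39, 6.41, 5.04 and 9.29 FPKM in control and at 41.1, 36.9, 32.5, 27.2 and 46.6 FPKM in miR-451a samples (log2 fold change 2.11, SE 0.18, adjusted p = 1.68e-06 from limma). Stat2 rose from 15.2 ± 1.52 to 26.8 ± 5.18 FPKM and Irf9 from 7.43 ± 0.642 to 13.2 ± 1.67 FPKM. Both encode proteins of the factor that interferon assembles on promoters. Zbp1, a sensor of left-handed nucleic acid, was at 8.03 ± 0.584 against 18.1 ± 3.87 FPKM, and Ifih1, the sensor of long double-stranded RNA, at 6.39 ± 0.367 against 12.6 ± 1.82 FPKM. Parp9 had the smallest called rise of the list, at 16.4 ± 1.44 against 22.5 ± 2.84 FPKM (0.43 on the log2 scale). Usp18, which removes ISG15 from proteins, was higher but overlapped, at 6.24 to 9.10 FPKM in control and 9.06 to 19.2 FPKM in miR-451a samples.

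The immune GTPases, which interferon gamma strongly induces, were higher in 13 of 14 tested genes (median log2 fold change 1.03). Gbp9, a guanylate-binding protein, rose from 1.85 ± 0.167 to 10.4 ± 1.06 FPKM and Igtp, which guards phagosomes, from 8.08 ± 1.08 to 21.2 ± 2.78 FPKM. Irgm1, a regulator of the other family members, was at 16.05, 16.03, 13.6, 13.3 and 15.9 FPKM in control and at 21.3, 24.5, 18.5, 18.2 and 24.2 FPKM in miR-451a samples (log2 fold change 0.48, SE 0.09, adjusted p = 0.000976 from limma). Gbp2 was the 1 member that did not pass, at 17.4, 17.5, 22.5, 20.95 and 14.8 FPKM in control and 21.2, 20.9, 20.8, 19.3 and 21.2 FPKM in miR-451a samples (adjusted p = 0.162 from limma), and it passed without control sample 3 (adjusted p = 0.033) and after rescaling to TPM (adjusted p = 0.0434). Tgtp2, at 2.81 ± 0.383 against 11.2 ± 1.90 FPKM, shares 90.6% of its 50-base stretches with Tgtp1.

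Promoters of 4 of these genes are printed to show the interferon-stimulated response element, searched as TTTC, any 2 bases and TTTC on both strands over the same window. The matches are in capitals, and overlapping matches run together.
Ifit3, chr19:34583348-34583441 plus strand: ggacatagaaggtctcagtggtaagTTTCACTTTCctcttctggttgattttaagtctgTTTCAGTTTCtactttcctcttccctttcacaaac
Isg15, chr4:156200850-156200921 minus strand: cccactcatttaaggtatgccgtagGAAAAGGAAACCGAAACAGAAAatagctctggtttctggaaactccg
Gbp2, chr3:142620579-142620638 plus strand: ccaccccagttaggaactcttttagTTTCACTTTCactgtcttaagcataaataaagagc
Irgm1, chr11:48871421-48871475 minus strand: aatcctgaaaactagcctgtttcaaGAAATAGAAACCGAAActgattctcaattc
The letters were in the promoters of 22 of 38 type I interferon genes in the RefSeq table (57.9%), of 10 of 11 GTPase genes (90.9%) against 3.99% of all 27025 genes with a promoter and 3.44% of all 32851 promoters. Gbp2 holds the letters 59 bases before its start and did not pass the test, while Ifit3, with matches from 156 bases before its start, had the third largest rise of all genes on the log2(FPKM + 1) scale.

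**Figure D4:**
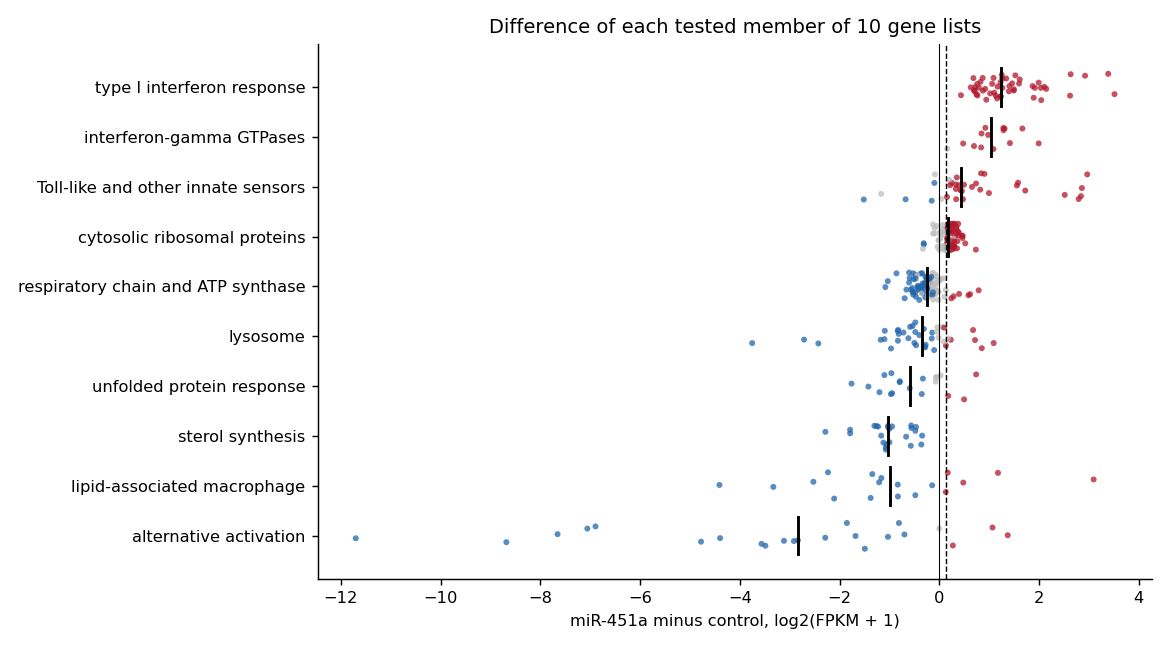
Difference of each tested member of 10 gene lists (miR-451a minus control, on the log2(FPKM + 1) scale), with 1 point per gene in red (called higher), blue (called lower) or grey (not called), the median of the list as a black bar and the median of all genes, 0.13, as a dashed line. All points of the type I interferon list lie right of 0 and all points of the sterol synthesis list lie left of it. The alternative activation list spreads down to -11.70. All lists were chosen with earlier results of these data known.

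Of the 13 tested genes of classical activation, 9 were higher and 1 lower (median log2 fold change 0.92). Cxcl10, the interferon-induced chemokine for T cells, was at 0.262, 0.469, 0.435, 0.290 and 0.400 FPKM in control and at 7.05, 8.27, 6.95, 5.67 and 9.03 FPKM in miR-451a samples (log2 fold change 2.60, SE 0.10, adjusted p = 2.65e-09 from limma). Tnf was at 1.62 ± 0.397 against 6.41 ± 1.09 FPKM, and Il18, an inflammasome substrate, at 2.42 ± 0.422 against 6.41 ± 0.916 FPKM. Socs3, the feedback inhibitor of interleukin 6 signalling, rose from 6.35 ± 0.327 to 12.9 ± 1.38 FPKM. Acod1, which makes itaconate in activated macrophages, was the 1 that fell, from 13.7 ± 1.38 to 2.50 ± 0.877 FPKM (-2.11 on the log2 scale). Nos2, Il6, Il12a, Il12b and Il23a, defining genes of this state, did not reach the mean of 1 FPKM. Nos2, the inducible nitric oxide synthase, was at 0.121 to 0.383 FPKM in control and 0 to 0.0290 FPKM in miR-451a samples, and Il12b was listed at 0 in all 10 samples. Irf1 (20.7 ± 5.76 against 24.2 ± 0.818 FPKM) and Irf5 (32.7 ± 7.24 against 35.3 ± 3.58 FPKM) did not pass (adjusted p = 0.154 and 0.397 from limma). Without control sample 3 they did (adjusted p = 0.0366 and 0.023), as did Irf1 without control sample 4 (adjusted p = 0.0415).

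Sensors of microbial products and damage were higher in 26 of 34 tested genes and lower in 4 (median log2 fold change 0.44). Tlr2, for bacterial lipoproteins (ENSMUSG00000027995, chromosome 3, 83836272 to 83841767, minus strand), was at 7.49, 8.67, 7.08, 7.16 and 7.97 FPKM in control and at 64.5, 62.8, 61.3, 57.6 and 58.7 FPKM in miR-451a samples (log2 fold change 2.84, SE 0.05, adjusted p = 1.93e-11 from limma). The nucleic acid receptors Tlr9 (5.09 ± 0.675 against 41.1 ± 3.61 FPKM) and Tlr7 (30.7 ± 14.3 against 92.7 ± 39.9 FPKM) rose as well. Nlrp3, the sensor of an inflammasome, was at 0.800, 1.11, 0.913, 0.841 and 1.16 FPKM in control and at 13.2, 13.4, 13.8, 12.99 and 12.7 FPKM in miR-451a samples (log2 fold change 2.86, SE 0.06, adjusted p = 2.38e-11 from limma). Cd14, the co-receptor for lipopolysaccharide, rose from 34.8 ± 4.70 to 204.8 ± 36.7 FPKM. Tlr4, the receptor it serves, was at 29.8, 5.19, 28.5, 5.31 and 5.03 FPKM in control and at 5.10, 4.21, 3.73, 3.88 and 4.12 FPKM in miR-451a samples, and it did not pass (log2 fold change -1.17, SE 0.49, adjusted p = 0.0564 from limma). Control samples 1 and 3 of Tlr4 were far above the other 3, and Tlr4 passed as lower when control sample 2, 4 or 5 was left out (adjusted p = 0.0335, 0.0346 and 0.0314 from limma) and with median centring or quantile normalization (adjusted p = 0.0398 and 0.0373). The beta-glucan receptor Clec7a fell from 343 ± 39.7 to 118.9 ± 7.61 FPKM, and its relative Clec4n, dectin 2, rose from 0.665 ± 0.0891 to 12.3 ± 3.35 FPKM.

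Among subunits and inhibitors of NF-kB, 11 of 19 tested genes were higher and 1 lower (median log2 fold change 0.35). The largest rises were those of Nfkbiz from 1.64 ± 0.190 to 10.9 ± 0.844 FPKM, Nfkbie from 2.39 ± 0.358 to 6.53 ± 0.550 FPKM and Nfkbia from 22.1 ± 1.56 to 48.8 ± 3.30 FPKM. Subunits moved less, with Rela at 22.5 ± 1.59 against 30.8 ± 1.93 FPKM and Relb at 4.62 ± 0.521 against 7.32 ± 0.656 FPKM, and Rel did not pass (12.02 ± 0.438 against 11.8 ± 0.386 FPKM, adjusted p = 0.57 from limma) except as lower with median centring or quantile normalization. The TNF superfamily and its receptors were divided, with 10 of 20 higher and 6 lower, and the list's median log2 fold change of 0.10 turned to -0.05 with median centring. Tnfrsf26, a decoy receptor, fell from 29.7 ± 0.913 to 4.84 ± 0.456 FPKM, and Tnfsf9, the ligand of the T cell receptor 4-1BB, rose from 0.697 ± 0.180 to 3.13 ± 0.509 FPKM.

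Of 28 tested interleukin genes and receptors, 16 were higher and 7 lower. Il10, the anti-inflammatory cytokine, was at 0.602, 0.911, 0.829, 0.660 and 0.651 FPKM in control and at 3.79, 3.84, 4.03, 3.78 and 4.19 FPKM in miR-451a samples (log2 fold change 1.51, SE 0.06, adjusted p = 2.05e-09 from limma), and its receptor chain Il10ra rose from 14.6 ± 1.10 to 42.9 ± 1.48 FPKM. Il21r had the largest rise of the list, from 1.04 ± 0.190 to 9.72 ± 0.756 FPKM, and Il15, a growth factor of NK and memory T cells, rose from 2.94 ± 0.267 to 7.55 ± 0.397 FPKM. Il7r fell from 89.6 ± 6.63 to 19.8 ± 0.806 FPKM. The receptor pair of interleukin 6 split, with Il6ra at 12.96 ± 0.240 against 27.4 ± 0.936 FPKM and the shared signalling chain Il6st at 61.5 ± 10.496 against 20.6 ± 5.37 FPKM (log2 fold changes 1.02 and -1.55). Il11ra1 fell from 37.02 ± 2.80 to 6.52 ± 0.662 FPKM, but 60.0% of its 50-base stretches occur in other genes.

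**Figure D5:**
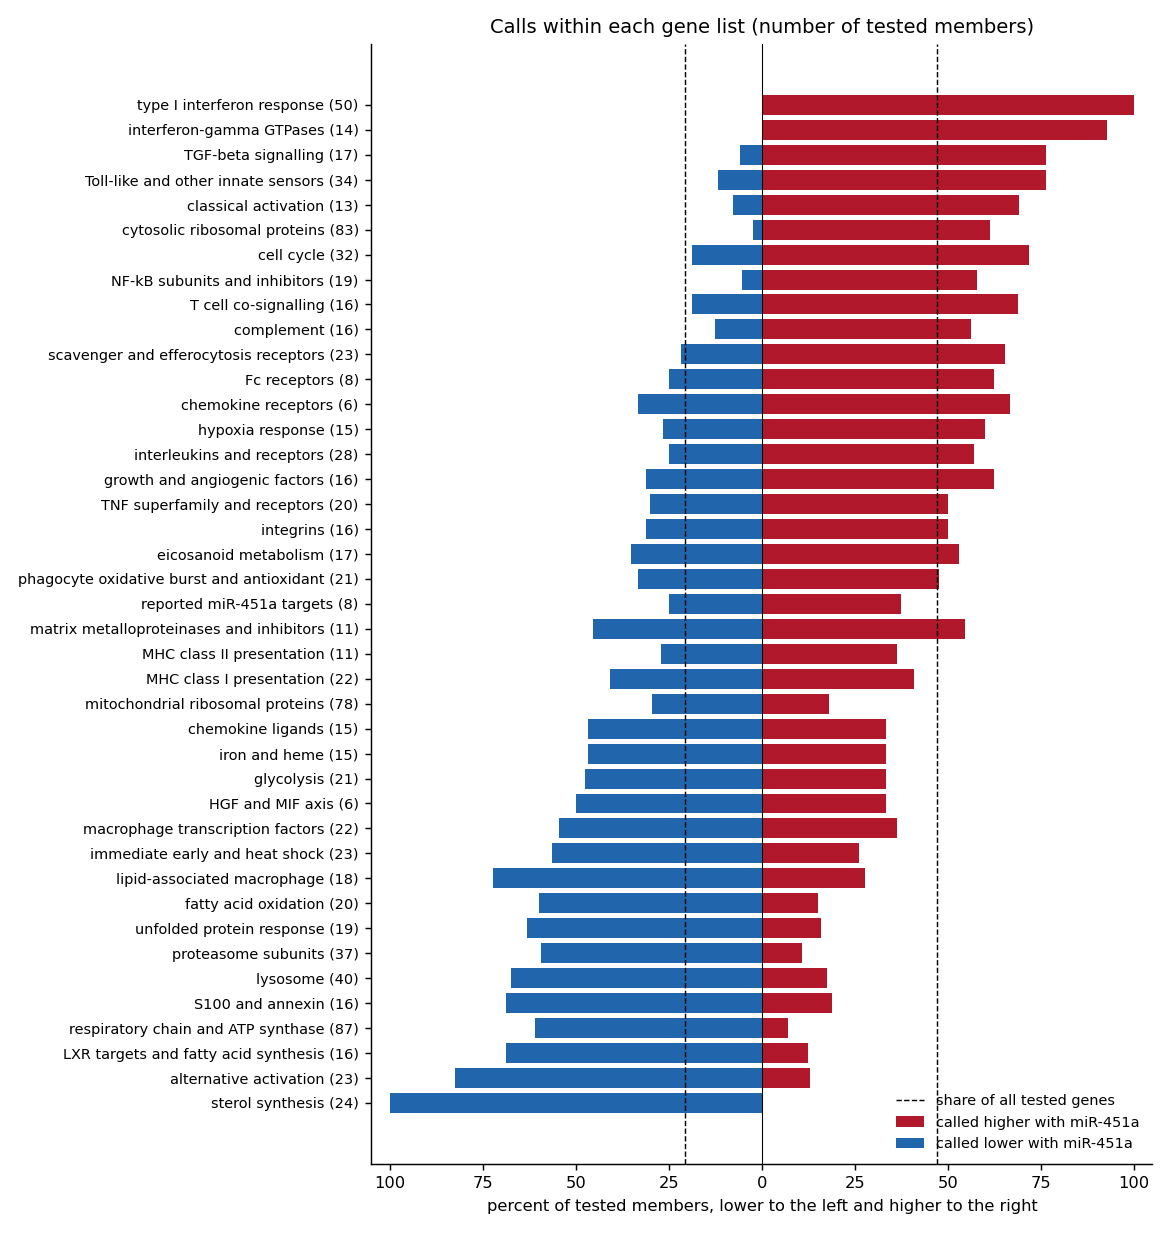
Percent of the tested members of each gene list that were called higher (red, to the right) or lower (blue, to the left), with the number of tested members in brackets and dashed lines at the shares over all tested genes, 47.2% higher and 20.8% lower. Type I interferon response and sterol synthesis reach 100% in opposite directions. Lists such as MHC class I presentation hold about as many calls on both sides. All lists were chosen with earlier results of these data known.

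Antigen presentation did not move as a block. In class II, 4 of 11 tested genes were higher and 3 lower, and with median centring 1 was higher and 3 lower, so that the list's median log2 fold change of 0.14 turned to -0.01. The beta chain H2-Ab1 was at 84.3, 70.3, 99.8, 79.8 and 81.7 FPKM in control and at 108, 89.1, 107, 110.2 and 118 FPKM in miR-451a samples, which overlapped (log2 fold change 0.36, SE 0.09, adjusted p = 0.00608 from limma). The alpha chain H2-Aa (74.7 ± 2.51 against 82.4 ± 10.3 FPKM) and the master regulator Ciita (10.9 ± 0.691 against 12.1 ± 1.44 FPKM) did not pass (adjusted p = 0.149 and 0.12 from limma). H2-Ab1 lost its call with median centring, while H2-Aa passed as higher without miR-451a sample 2 (adjusted p = 0.0186 from limma) and Ciita without miR-451a sample 4 (adjusted p = 0.0337). Both passed after rescaling to TPM (adjusted p = 0.0205 and 0.0281). Ifi30, a thiol reductase that unfolds antigens in the lysosome, fell from 210.7 ± 14.3 to 75.9 ± 4.83 FPKM, and Cd74, the invariant chain, was at 842, 777, 923, 807 and 861 FPKM in control and at 637, 529, 629, 653 and 708 FPKM in miR-451a samples (log2 fold change -0.42, SE 0.07, adjusted p = 0.000461 from limma). March1, the ligase that removes class II molecules from the surface, rose from 4.47 ± 0.411 to 9.32 ± 0.757 FPKM.

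In class I, 9 of 22 tested genes were higher and 9 lower (7 and 12 with median centring), and the median log2 fold change of -0.07 turned to 0.01 after rescaling to TPM. The peptide transporter genes Tap1 (7.29 ± 1.04 against 13.6 ± 1.86 FPKM) and Tap2 (15.7 ± 0.796 against 21.3 ± 1.63 FPKM), the regulator Nlrc5 (6.99 ± 0.863 against 12.8 ± 1.73 FPKM) and the immunoproteasome subunits Psmb8 (21.6 ± 1.81 against 26.6 ± 1.80 FPKM) and Psmb9 (7.03 ± 0.966 against 10.7 ± 1.41 FPKM) rose. The chaperones and chains at high level fell, B2m from 2913 ± 174 to 2215 ± 108 FPKM, H2-D1 from 1932 ± 65.8 to 1291 ± 71.3 FPKM and Calr, calreticulin, from 516 ± 8.49 to 224 ± 12.2 FPKM. H2-K1 did not pass, at 281 ± 39.3 against 264 ± 18.3 FPKM (adjusted p = 0.405 from limma). The call of B2m was lost under quantile normalization and that of Psmb8 with median centring. H2-K1 passed as lower there.

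Both PD-1 ligands fell, while most other molecules that act on T cells were higher. Of 16 tested genes 11 were higher and 3 lower. Pdcd1lg2, the PD-1 ligand PD-L2, was at 24.6, 22.5, 31.1, 27.8 and 21.6 FPKM in control and at 0.290, 0.395, 0.236, 0.168 and 0.166 FPKM in miR-451a samples (log2 fold change -4.40, SE 0.10, adjusted p = 4.84e-11 from limma). Cd274, the PD-1 ligand PD-L1 (ENSMUSG00000016496, chromosome 19, 29367455 to 29388095, plus strand), was at 51.02, 53.3, 61.1, 59.9 and 49.8 FPKM in control and at 11.04, 11.99, 12.8, 12.7 and 12.2 FPKM in miR-451a samples (log2 fold change -2.09, SE 0.06, adjusted p = 4.87e-10 from limma). Neither gene overlapped between the groups. Icosl, the ligand of the co-stimulator ICOS, was at 0.658, 0.726, 0.515, 0.636 and 0.666 FPKM in control and at 8.82, 7.88, 8.35, 8.48 and 7.61 FPKM in miR-451a samples (log2 fold change 2.49, SE 0.05, adjusted p = 2.60e-11 from limma), and Cd80 was at 0.884 ± 0.135 against 2.27 ± 0.309 FPKM. Inhibitory molecules also rose, among them Havcr2 (TIM-3, 2.10 ± 0.405 against 7.26 ± 0.675 FPKM), Lgals9 (galectin 9, 36.97 ± 2.94 against 68.4 ± 3.15 FPKM) and Vsir (VISTA, 37.1 ± 1.59 against 70.4 ± 33.5 FPKM), the last of which lost its call with median centring.

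Of 15 tested chemokines 5 were higher and 7 lower, and their summed level was 1337 to 1548 FPKM in control and 418.7 to 474.4 FPKM in miR-451a samples. Monocyte chemokines fell, with Ccl6 at 546, 596, 579, 638 and 481 FPKM in control and 91.7, 104, 96.5, 98.8 and 86.6 FPKM in miR-451a samples, Ccl9 at 356 ± 20.1 against 118.7 ± 10.8 FPKM, Ccl7 at 56.3 ± 5.81 against 18.5 ± 1.25 FPKM and Ccl2, the CCR2 ligand, at 41.1 ± 5.14 against 15.4 ± 2.14 FPKM. The macrophage inflammatory proteins 1 beta and 1 alpha rose instead, Ccl4 from 8.91, 8.43, 6.83, 6.86 and 8.54 FPKM in control to 30.8, 31.4, 25.8, 27.5 and 42.3 FPKM in miR-451a samples (log2 fold change 1.86, SE 0.12, adjusted p = 2.12e-07 from limma) and Ccl3 from 22.95 ± 3.55 to 62.9 ± 7.06 FPKM. Ccl5, a chemokine of T cells and monocytes, did not pass, at 2.58 ± 0.621 against 2.94 ± 0.799 FPKM (adjusted p = 0.444 from limma). Cxcl16 rose from 36.8 ± 0.496 to 73.5 ± 4.74 FPKM and Cxcl12 from 1.78 ± 0.424 to 4.82 ± 2.17 FPKM. Among the 6 tested receptors Cx3cr1 (0.125 ± 0.0577 against 3.92 ± 1.06 FPKM), Cxcr3 (0.107 ± 0.0273 against 2.75 ± 0.406 FPKM) and Cxcr4 (112 ± 2.47 against 177 ± 12.7 FPKM) rose, whereas Ccr1 fell from 7.54 ± 0.727 to 2.96 ± 1.30 FPKM.

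The study asked whether tumor microRNAs act on macrophages through hepatocyte growth factor and macrophage migration inhibitory factor, and the TAMs express parts of both axes. Mif itself was at 77.3, 71.6, 76.6, 65.1 and 77.9 FPKM in control and at 59.1, 59.97, 73.7, 72.7 and 69.1 FPKM in miR-451a samples, with overlap (log2 fold change -0.14, SE 0.08, adjusted p = 0.121 from limma). It passed as lower with median centring (-0.285, adjusted p = 0.00865 from limma) and without control sample 4 (-0.184, adjusted p = 0.0469). Its receptor Cd74 is given above, and the co-receptor Cd44 was at 51.2, 48.2, 51.3, 51.3 and 51.8 FPKM in control and at 20.7, 22.7, 22.9, 24.7 and 21.6 FPKM in miR-451a samples (log2 fold change -1.14, SE 0.04, adjusted p = 2.83e-09 from limma). Cxcr4, a further MIF receptor, was at 111, 114, 109, 112 and 116 FPKM in control and at 175, 171, 169.6, 170.1 and 199 FPKM in miR-451a samples (log2 fold change 0.65, SE 0.05, adjusted p = 3.20e-07 from limma). Ddt, the homologue of MIF, fell from 26.7 ± 2.52 to 19.6 ± 1.61 FPKM. Mif shares 37.6% and Ddt 30.5% of their 50-base stretches with other genes. Hgf rose in the TAMs from 2.57, 2.76, 2.31, 2.42 and 2.63 FPKM to 3.90, 3.91, 3.55, 3.96 and 3.43 FPKM (log2 fold change 0.43, SE 0.05, adjusted p = 1.78e-05 from limma). Met, its receptor, was under the filter, at 0.565 to 0.882 FPKM in control and 0.303 to 0.490 FPKM in miR-451a samples, as were the activating protease genes Hgfac, Hpn and St14 and the inhibitor genes Spint1 and Spint2. The 6 tested members held 2 rises and 3 falls.

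Genes known as miR-451a targets in other cells gave 3 rises and 2 falls of 8 tested (median log2 fold change 0.04), and 1 rise and 4 falls with median centring (median -0.11). Myc (3.54 ± 0.367 against 2.60 ± 0.216 FPKM) and Ywhaz (41.9 ± 3.64 against 34.9 ± 3.70 FPKM) fell, Il6ra, Psmb8 and Rab14 (10.9 ± 0.372 against 12.6 ± 0.509 FPKM) rose, and Cab39 (29.5 ± 0.922 against 29.5 ± 0.999 FPKM), Akt1 (64.7 ± 2.20 against 68.3 ± 2.51 FPKM) and Mif did not pass. The calls of Psmb8 and Rab14 were lost with median centring, that of Rab14 also under quantile normalization, and that of Ywhaz after rescaling to TPM and in a fit over all 3 groups, while Cab39 passed as lower with median centring and Akt1 as higher without control sample 1 (adjusted p = 0.0449 from limma) or miR-451a sample 2 (adjusted p = 0.0384) and after rescaling to TPM (adjusted p = 0.00338). The site complementary to the printed seed, AACGGTT, was found in the annotated 3′ UTR of 206 of 10016 tested genes. Of these 206, 114 were higher (55.3%) and 40 lower (19.4%), with a median log2 fold change of 0.19, beside 49.09% higher, 21.02% lower and 0.14 for the 9810 genes without it. With a following A, the 37 genes held 23 rises and 6 falls (median 0.28). A match of letters is no measure of repression.

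Growth and angiogenic factors were higher in 10 of 16 tested genes and lower in 5. Vegfa, the main angiogenic factor, was at 6.23, 6.69, 5.51, 6.12 and 6.05 FPKM in control and at 16.3, 15.3, 15.6, 17.9 and 16.8 FPKM in miR-451a samples (log2 fold change 1.29, SE 0.05, adjusted p = 3.74e-09 from limma). Pdgfb (1.11 ± 0.130 against 6.84 ± 0.866 FPKM), the neuropilin Nrp1 (14.48 ± 0.514 against 33.3 ± 2.01 FPKM) and Gas6 (102 ± 12.2 against 368 ± 7.73 FPKM), ligand of the engulfment receptors AXL and MERTK, rose. Pdgfa (16.8 ± 1.35 against 5.81 ± 0.748 FPKM) and Igf1 (106 ± 6.23 against 65.2 ± 1.83 FPKM) fell. Of 17 tested genes of TGF-beta signalling 13 were higher and 1 lower (median log2 fold change 0.70), with both receptor genes Tgfbr1 (16.6 ± 0.630 against 38.1 ± 1.91 FPKM) and Tgfbr2 (16.4 ± 0.654 against 35.5 ± 1.16 FPKM) among the rises. Tgfbi, a matrix protein induced by TGF-beta, was at 16.9, 19.6, 15.02, 15.9 and 20.4 FPKM in control and at 139, 149.5, 129.7, 123 and 136 FPKM in miR-451a samples (log2 fold change 2.88, SE 0.08, adjusted p = 3.20e-10 from limma). The ligand Tgfb1 did not pass, at 48.4 ± 2.05 against 50.2 ± 2.95 FPKM (adjusted p = 0.362 from limma), except as higher after rescaling to TPM.

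Genes that mark macrophages of particular tissues shifted in opposite directions. Of 11 tested microglia markers 9 were higher and 1 lower, with P2ry13 at 0.477 ± 0.113 against 4.48 ± 1.07 FPKM and P2ry12, the ADP receptor of microglia, at 0.670 ± 0.0758 against 2.18 ± 0.311 FPKM besides Fcrls, Gpr34 and Cx3cr1, while Sall1, a defining microglial factor, was listed at 0 in all 10 samples. Of 6 tested alveolar markers 5 were lower and Lpl was higher by 0.13, a rise that was lost under median centring. Fabp4 fell from 118.97 ± 7.59 to 19.8 ± 0.638 FPKM, Ear2 from 35.6 ± 1.31 to 0.339 ± 0.139 FPKM (41.5% of its 50-base stretches are shared) and Siglecf from 2.26 ± 0.225 to 0.355 ± 0.0982 FPKM. Of 15 Kupffer cell markers 10 were under 1 FPKM in all 10 samples, with Clec4f listed at 0 throughout. Of the 4 tested, 2 were higher and 2 were not called, and 50% higher is near the 47.2% of all tested genes. Cd5l, a secreted inhibitor of apoptosis and one of the 4 tested, was at 3.27, 3.21, 3.45, 3.65 and 3.40 FPKM in control and at 18.3, 17.6, 38.4, 46.1 and 15.3 FPKM in miR-451a samples (log2 fold change 2.54, SE 0.28, adjusted p = 1.09e-05 from limma), with miR-451a samples 3 and 4 the highest, and Cd163, the haptoglobin-hemoglobin receptor, rose from 0.958 ± 0.119 to 6.10 ± 1.20 FPKM. Of 6 tested monocyte markers 5 rose, Plac8 and Spn among them (3.05 ± 0.602 against 7.19 ± 1.65 FPKM and 2.30 ± 0.183 against 7.24 ± 2.67 FPKM). The sixth, S100a4, a calcium-binding protein, fell from 1183 ± 177 to 749 ± 186 FPKM. Of its 50-base stretches 56.3% also occur in another gene. It carried the sum of the list, at 951.7 to 1429 FPKM in control and 601.5 to 982 FPKM in miR-451a samples. Ccr2 and Ly6c2 were under the filter. Ccr2 was at 0.116 to 0.259 FPKM in control and 1.32 to 1.496 FPKM in miR-451a samples, with no overlap, and Ly6c2 at 0.403 FPKM at most.

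Of 22 tested macrophage transcription factors, 8 were higher and 12 lower. Maf, which drives a resident-like macrophage program (ENSMUSG00000055435, chromosome 8, 115682942 to 115707794, minus strand), was at 7.48, 7.66, 7.24, 8.49 and 7.45 FPKM in control and at 51.8, 54.6, 61.8, 64.0 and 48.3 FPKM in miR-451a samples (log2 fold change 2.71, SE 0.08, adjusted p = 2.39e-10 from limma). Bhlhe40, a regulator of macrophage proliferation (ENSMUSG00000030103, chromosome 6, 108660629 to 108666925, plus strand), was at 61.5, 61.8, 64.9, 66.5 and 57.7 FPKM in control and at 3.84, 3.82, 4.25, 3.95 and 3.85 FPKM in miR-451a samples (log2 fold change -3.68, SE 0.04, adjusted p = 8.73e-13 from limma). Cebpb (61.5 ± 7.23 against 27.04 ± 4.26 FPKM) and Cebpa (66.9 ± 2.95 against 39.4 ± 3.14 FPKM) fell and Cebpd rose (1.93 ± 0.242 against 6.79 ± 0.866 FPKM). Spi1, the lineage factor PU.1, did not pass, at 96.5 ± 5.46 against 104 ± 7.15 FPKM (adjusted p = 0.0878 from limma). It passed as higher without miR-451a sample 4 (adjusted p = 0.0297), after quantile normalization (adjusted p = 0.0359) and after rescaling to TPM (adjusted p = 0.0116).

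Among the Fc receptors the high-affinity chain rose and the inhibitory chain fell. Fcgr1 was at 17.3, 19.01, 16.7, 16.6 and 20.4 FPKM in control and at 113, 117, 114, 116 and 129 FPKM in miR-451a samples (log2 fold change 2.64, SE 0.06, adjusted p = 6.87e-11 from limma). Fcgr2b, the inhibitory receptor, was at 149.7, 149, 166, 152 and 154 FPKM in control and at 37.5, 35.2, 44.04, 50.9 and 32.4 FPKM in miR-451a samples (log2 fold change -1.94, SE 0.10, adjusted p = 3.97e-08 from limma). Over the list 5 of 8 tested genes were higher and 2 lower, and Fcgr4 did not pass (75.01 ± 4.18 against 78.2 ± 4.21 FPKM, adjusted p = 0.29 from limma) except as higher after rescaling to TPM. Of 16 tested complement entries 9 were higher and 2 lower. The chains of C1q did not rise equally, with C1qa at 253 ± 13.05 against 1065 ± 66.9 FPKM, C1qb at 1313 ± 40.1 against 2416 ± 138 FPKM and C1qc at 461 ± 19.99 against 861 ± 65.0 FPKM (log2 fold changes 2.07, 0.88 and 0.90). C3, the central component, fell from 65.1 ± 5.73 to 37.2 ± 5.62 FPKM. C5ar1 was at 59.5 to 68.1 FPKM in control and at 162.95, 166, 158, 162 and 19.7 FPKM in miR-451a samples, where sample 5 was far under the others, and it did not pass (adjusted p = 0.233 from limma). Without that sample its log2 fold change was 1.33 (adjusted p = 2.51e-09 from limma).

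Scavenger and efferocytosis receptors were higher in 15 of 23 tested genes and lower in 5. Axl, a receptor for apoptotic cells, was at 21.8, 20.4, 17.6, 17.5 and 23.6 FPKM in control and at 98.1, 86.3, 88.4, 86.8 and 104 FPKM in miR-451a samples (log2 fold change 2.15, SE 0.09, adjusted p = 3.79e-09 from limma), and Mertk was at 40.6 ± 4.002 against 62.7 ± 6.64 FPKM. Cd36, the fatty acid and oxidized lipid receptor, was at 191, 198, 199, 221 and 193 FPKM in control and at 42.2, 43.1, 43.3, 42.4 and 37.96 FPKM in miR-451a samples (log2 fold change -2.23, SE 0.05, adjusted p = 4.84e-11 from limma). Mfge8, a bridge to apoptotic cells, fell from 160.0 ± 20.4 to 36.4 ± 3.02 FPKM. Of 16 tested integrin entries 8 were higher and 5 lower. The leukocyte beta chain Itgb2 fell from 423 ± 24.1 to 127 ± 4.76 FPKM and its partner Itgax, CD11c, was at 90.4, 84.3, 106, 100.2 and 84.6 FPKM in control and 3.09, 3.60, 3.84, 3.75 and 2.88 FPKM in miR-451a samples (log2 fold change -4.41, SE 0.08, adjusted p = 1.77e-11 from limma). Other alpha chains rose, Itgal (0.549 ± 0.0383 against 6.19 ± 0.628 FPKM), Itga4 (4.71 ± 0.251 against 20.8 ± 1.47 FPKM) and Itga6 (3.95 ± 0.178 against 25.3 ± 1.68 FPKM) among them.

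Sterol synthesis fell as a whole pathway. All 24 tested genes were called lower (median log2 fold change -1.03). This list, too, was chosen with earlier results of these data known. Dhcr7, the last step of cholesterol synthesis (ENSMUSG00000058454, chromosome 7, 143823145 to 143848410, plus strand), was at 28.7, 26.6, 33.5, 31.6 and 29.0 FPKM in control and at 5.32, 5.58, 5.51, 5.03 and 5.16 FPKM in miR-451a samples (log2 fold change -2.29, SE 0.06, adjusted p = 1.29e-10 from limma). Srebf2, a transcription factor of the pathway, fell least, from 28.7 ± 1.502 to 22.5 ± 3.06 FPKM (-0.35 on the log2 scale). The groups did not overlap for either gene.

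Desaturase genes fell too, while cholesterol export genes split. Of 16 tested genes of LXR targets and fatty acid synthesis 2 were higher and 11 lower (median log2 fold change -0.39). Scd1, a desaturase, was at 58.2, 56.4, 61.1, 60.2 and 58.5 FPKM in control and at 15.6, 13.4, 12.3, 12.2 and 12.8 FPKM in miR-451a samples (log2 fold change -2.07, SE 0.06, adjusted p = 2.59e-10 from limma). The cholesterol exporter Abca1 was at 46.9, 44.5, 51.8, 49.8 and 47.1 FPKM in control and at 85.99, 87.6, 104, 109.6 and 77.4 FPKM in miR-451a samples (log2 fold change 0.93, SE 0.09, adjusted p = 4.01e-06 from limma), whereas Abcg1 fell from 100.5 ± 3.36 to 58.2 ± 2.18 FPKM and the receptor Nr1h3 from 18.4 ± 2.09 to 7.46 ± 0.547 FPKM. Genes of lipid-associated macrophages were lower in 13 of 18 (median log2 fold change -0.998). Gpnmb fell from 3218 ± 181 to 1266 ± 49.1 FPKM, Lgals3 (galectin 3) from 2400.3 ± 53.4 to 924 ± 37.002 FPKM and Mmp12 from 139 ± 9.60 to 12.9 ± 0.446 FPKM. Trem2, the lipid receptor that defines the state, was slightly higher, at 101.2 ± 2.63 against 114 ± 4.37 FPKM, and so was Spp1, osteopontin, at 716, 725, 548, 541 and 736 FPKM in control and 1128, 1033, 667, 669 and 1153 FPKM in miR-451a samples, which overlapped through the samples numbered 3 and 4. The call of Trem2 was lost with median centring, and that of Spp1 (adjusted p = 0.0366 from limma) with median centring, quantile normalization or no filter and without control sample 3 or 4 or miR-451a sample 1, 2 or 5 (adjusted p = 0.0825, 0.083, 0.0858, 0.0813 and 0.0859). Apoc2 rose from 17.99 ± 2.84 to 159.8 ± 4.49 FPKM, but 88.2% of its 50-base stretches occur in a read-through gene. Fatty acid oxidation was lower in 12 of 20 tested genes and higher in 3, with Acadl at 47.3 ± 1.70 against 28.8 ± 0.784 FPKM and Cpt1a, the entry step, at 17.5 ± 0.653 against 20.2 ± 0.859 FPKM, a call that was lost with median centring.

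The lysosome was lower in 27 of 40 tested genes and higher in 7 (median log2 fold change -0.36). Atp6v0d2, a subunit of the proton pump (ENSMUSG00000028238, chromosome 4, 19876841 to 19922605, minus strand), was at 460.0, 489.6, 493, 524 and 456 FPKM in control and at 31.5, 31.8, 39.5, 39.5 and 33.6 FPKM in miR-451a samples (log2 fold change -3.75, SE 0.07, adjusted p = 2.39e-11 from limma). Ctsl fell from 437 ± 28.4 to 65.8 ± 3.15 FPKM and Ctsk from 56.6 ± 1.84 to 9.78 ± 1.37 FPKM. Ctsc, which activates serine proteases, rose from 26.7 ± 1.63 to 58.3 ± 6.53 FPKM. Of 37 tested proteasome subunits 22 were lower and 4 higher. These were 33 and 1 with median centring and 17 and 5 after rescaling to TPM. Psmb6 and Psmb5, constitutive catalytic subunits, fell to 47.3 ± 3.05 and 47.2 ± 2.14 FPKM from 96.2 ± 4.32 and 64.9 ± 1.996 FPKM (57.1% of the 50-base stretches of Psmb5 are shared), while Psmb8 and Psmb9, interferon-induced replacements, rose as given above. Psmb10, the third immunosubunit, fell from 76.2 ± 2.81 to 39.1 ± 2.93 FPKM.

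Chaperones of the endoplasmic reticulum were lower. Of 19 tested genes of the unfolded protein response 12 were lower and 3 higher (median log2 fold change -0.59). Hspa5, the chaperone BiP, was at 214, 221, 208.99, 210.9 and 212 FPKM in control and at 124, 121, 122, 126 and 121 FPKM in miR-451a samples (log2 fold change -0.79, SE 0.03, adjusted p = 7.95e-10 from limma). Creld2, a disulfide isomerase-like chaperone, was at 28.6, 32.2, 29.1, 29.1 and 30.1 FPKM in control and at 13.7, 12.6, 12.7, 12.8 and 15.1 FPKM in miR-451a samples (log2 fold change -1.10, SE 0.05, adjusted p = 1.41e-08 from limma). Pdia4 had the largest fall of the list, from 146 ± 9.22 to 42.3 ± 1.96 FPKM. The sensor Atf6 rose from 16.05 ± 0.424 to 23.1 ± 1.12 FPKM, and Xbp1, whose splicing carries the signal of another sensor, did not pass (27.6 ± 0.973 against 26.6 ± 1.76 FPKM, adjusted p = 0.312 from limma) except as lower with median centring.
The endoplasmic reticulum stress element, CCAAT, any 9 bases and CCACG on either strand, is in capitals in the promoters of Hspa5 and Creld2.
Hspa5, chr2:34772000-34772068 plus strand: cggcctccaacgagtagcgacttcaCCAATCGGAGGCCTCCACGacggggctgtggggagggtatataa
Creld2, chr15:88819495-88819563 plus strand: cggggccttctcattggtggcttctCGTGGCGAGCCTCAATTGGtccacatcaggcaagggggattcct
It was in 5 of 18 promoters of the list (27.8%), those of Calr, Creld2, Hsp90b1, Hspa5 and Pdia6, against 0.137% of all 27025 genes with a promoter and 0.119% of all 32851 promoters. All 5 genes fell, with log2 fold changes of -1.20, -1.10, -0.79, -0.79 and -0.96.

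Nuclear genes of the respiratory chain and ATP synthase were lower in 53 of 87 tested genes and higher in 6 (median log2 fold change -0.24). Ndufa1, of complex I, fell from 97.2 ± 11.7 to 47.4 ± 9.45 FPKM. Cox7b, of complex IV, fell from 60.99 ± 7.02 to 33.0 ± 2.17 FPKM. Ndufa4l2, which hypoxia induces, rose from 1.40 ± 0.307 to 3.15 ± 0.599 FPKM. Mitochondrially encoded genes took 7.59% of all FPKM in control and 6.63% in miR-451a samples, and cytosolic ribosomal protein genes 4.19% and 5.02% (two-sided exact permutation p = 0.00794 in both cases). Cytosolic ribosomal proteins were higher in 51 of 83 tested genes and lower in 2, but 22 were higher and 7 lower with median centring. Mitochondrial ribosomal proteins were higher in 14 of 78 and lower in 23, against 4 and 48 with median centring and 19 and 11 after rescaling to TPM.

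In glycolysis 7 of 21 tested genes were higher and 10 lower. Hk3, the hexokinase of myeloid cells, was at 187, 181, 199, 183 and 181 FPKM in control and at 44.7, 44.4, 44.8, 41.9 and 48.8 FPKM in miR-451a samples (log2 fold change -2.03, SE 0.04, adjusted p = 4.31e-11 from limma). Ldha, lactate dehydrogenase, fell from 177 ± 7.90 to 103 ± 3.21 FPKM and Slc2a1, the glucose carrier GLUT1, from 13.7 ± 0.486 to 8.52 ± 0.455 FPKM. Pdk1, which keeps pyruvate from the mitochondrion, rose from 3.89 ± 0.237 to 7.88 ± 0.703 FPKM. Of 15 tested genes of the hypoxia response 9 were higher and 4 lower, against 7 and 6 with median centring or quantile normalization. Ndrg1 was at 5.87 ± 0.186 against 17.7 ± 1.46 FPKM and Epas1, the hypoxia factor HIF-2 alpha, at 11.8 ± 1.40 against 4.61 ± 0.375 FPKM.

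Of 15 tested genes of iron and heme handling 5 were higher and 7 lower, and the list's median log2 fold change of -0.13 turned to 0.01 under quantile normalization. Tfrc, the transferrin receptor that brings iron in (ENSMUSG00000022797, chromosome 16, 32608920 to 32632794, plus strand), was at 178, 186, 184, 192 and 174 FPKM in control and at 6.15, 5.76, 7.37, 7.70 and 4.71 FPKM in miR-451a samples (log2 fold change -4.66, SE 0.10, adjusted p = 4.82e-11 from limma). Slc40a1, ferroportin, which lets iron out (ENSMUSG00000025993, chromosome 1, 45908068 to 45926523, minus strand), was at 2.17, 2.52, 2.41, 2.58 and 2.33 FPKM in control and at 16.9, 20.8, 25.02, 23.2 and 15.4 FPKM in miR-451a samples (log2 fold change 2.62, SE 0.12, adjusted p = 7.87e-09 from limma). Neither gene overlapped between the groups. The ferritin genes moved less, with Fth1 at 1560.1 ± 336 against 1742 ± 94.1 FPKM (adjusted p = 0.217 from limma, 0.0423 without control sample 5) and Ftl1 at 5078 ± 113 against 3761 ± 169 FPKM, whose fall turned to a rise under quantile normalization and of which 78.9% of the 50-base stretches occur in other genes.

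Eicosanoid genes were higher in 9 of 17 tested and lower in 6, with a median log2 fold change of 0.12 that turned to -0.02 with median centring. Of leukotriene synthesis, Alox5ap was at 56.9, 59.6, 46.3, 47.1 and 57.1 FPKM in control and 181, 180.1, 171, 167 and 189.5 FPKM in miR-451a samples (log2 fold change 1.72, SE 0.07, adjusted p = 6.47e-09 from limma) and Alox5, the lipoxygenase it serves, at 0.228 ± 0.0296 against 2.42 ± 0.720 FPKM. Both rose. Ptgs1, cyclooxygenase 1, fell from 22.6 ± 0.668 to 9.46 ± 1.14 FPKM. Ptgir, a receptor of prostacyclin, fell from 9.85 ± 0.638 to 0.765 ± 0.139 FPKM and Ptger2, a receptor of prostaglandin E2, from 10.3 ± 0.232 to 1.84 ± 0.242 FPKM. Ptger4, another receptor of prostaglandin E2, rose from 1.78 ± 0.109 to 6.52 ± 0.440 FPKM.

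Matrix metalloproteinases and their inhibitors were higher in 6 and lower in 5 of 11 tested genes. Mmp19 fell from 124 ± 14.4 to 10.47 ± 0.387 FPKM. Mmp14, the membrane-bound collagenase, rose from 6.62 ± 0.452 to 14.52 ± 2.49 FPKM and the inhibitor Timp3 from 3.28 ± 0.635 to 9.95 ± 1.70 FPKM, while Mmp2 and Timp3 are also made by fibroblasts, whose markers were higher in the same samples. S100 proteins and annexins were lower in 11 of 16 and higher in 3, led by Anxa1, a resolving mediator, at 567, 583, 588, 622 and 579.5 FPKM in control and 104.9, 106, 102, 102 and 105.4 FPKM in miR-451a samples (log2 fold change -2.48, SE 0.03, adjusted p = 1.13e-12 from limma).

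Genes of the oxidative burst and its defence were higher in 10 of 21 and lower in 7, with a median log2 fold change of 0.05 that turned to -0.10 with median centring and -0.05 under quantile normalization. The oxidase partners split, with Cybb at 187 ± 6.15 against 302 ± 20.6 FPKM and Cyba at 539 ± 28.03 against 313 ± 19.1 FPKM. Gpx1, a peroxidase, was at 469, 56.1, 61.2, 50.6 and 64.3 FPKM in control and at 263, 289.5, 226, 217 and 335 FPKM in miR-451a samples, so that control sample 1 lay above all miR-451a samples and the other 4 below them. Its call as higher (adjusted p = 0.0236 from limma) was lost without control sample 2, 3, 4 or 5 or miR-451a sample 5, at adjusted p of 0.0554, 0.0537, 0.0565, 0.0523 and 0.0503, and without a filter (adjusted p = 0.0548). Hmox1, heme oxygenase, fell from 151 ± 2.13 to 118.8 ± 3.39 FPKM.

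Cell cycle genes were called higher in 23 of 32 and lower in 6, but higher in 8 and lower in 6 with median centring. Mki67, the proliferation antigen, was at 7.78 ± 0.273 against 6.08 ± 0.976 FPKM and Pcna, the replication clamp (31.8% of its 50-base stretches shared), at 61.8 ± 3.50 against 36.8 ± 1.21 FPKM, both lower, and Ccnd1, cyclin D1, rose from 4.50 ± 0.619 to 9.64 ± 1.74 FPKM. Immediate early and heat shock genes, which tissue dissociation can induce, were lower in 13 of 23 and higher in 6. Atf3 fell from 222 ± 4.99 to 60.7 ± 4.51 FPKM and Jun from 77.7 ± 2.37 to 46.4 ± 2.91 FPKM, while Ier2 rose from 8.26 ± 0.832 to 16.3 ± 1.18 FPKM. Their part in the other results was not tested. Of 15 common reference genes 5 were higher and 7 lower, with Hprt at 38.3 ± 2.06 against 74.1 ± 4.45 FPKM, Actb at 519 ± 23.2 against 748 ± 92.2 FPKM and Gapdh (27.2% of its 50-base stretches shared) at 161 ± 12.4 against 143 ± 16.4 FPKM (adjusted p = 0.0754 from limma). Gapdh passed as lower without control sample 2 or miR-451a sample 1 or 4 (adjusted p = 0.0377, 0.0272 and 0.036) and with median centring.

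TAMs from tumors with miR-144 share the control group with those of miR-451a, so the overexpression groups were compared with each other. Of 11419 genes tested with all 15 samples in 1 limma fit, 0 (0%) had an adjusted p under 0.05, where 596 had an unadjusted p under 0.05 and the smallest adjusted p was 0.0752. The median absolute log2 fold change between these groups was 0.0414, and 6 genes differed by at least 2-fold, or 18 with a pseudocount of 0.1. In the miR-144 group Retnla was listed at 0 in all 5 samples, Chil3 was at 0.352 ± 0.117 FPKM, Maf at 51.1 ± 7.13 FPKM, Tfrc at 7.54 ± 1.72 FPKM, Dhcr7 at 5.70 ± 0.145 FPKM and Ifit3 at 94.7 ± 21.3 FPKM. A p that misses the threshold does not show that the groups were alike.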

How the data were processed

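RNA of TAMs from orthotopic Hepa1-6 tumors was taken with Trizol and sequenced on an Illumina HiSeq instrument. The authors deposited FPKM per gene and sample, already divided by transcript length and mapped fragments. The submitters' processing notes name FastQC 0.11.2, STAR and StringTie, while the versions of the latter pair, the genome build and the annotation are not given in the sources used here. The table lists 55335 genes, of which 28359 were above 0 in at least 1 of the 10 samples compared. Depth was read from the steps between low values. It is approximate, since 35.3% to 51.5% of these values fell on the steps, against 10% by chance. For the same reason fragment counts could not be rebuilt, and the test works on FPKM.

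Groups and sample numbers come from the labels. Genes averaging 1 FPKM or more were tested on log2(FPKM + 1) with limma 3.58.1 (R 4.3.3) and a mean-variance trend, with Benjamini-Hochberg adjustment over all tested genes. Single values per sample were compared with two-sided exact permutation tests. Gene lists carry no test of their own. The lists, the members and the comparison were chosen with earlier results of these data known. Named genes are the 15 largest rises and falls, up to 3 members each way of each list, the HGF and MIF axis, the genes near 0 in 1 group, the most abundant genes, and further list members given for their known role, chosen after their values were seen, and a few genes that this rule picks are not reported here. Identifiers were matched to GENCODE M21 (99.67% found, 86.36% with the same symbol), sequences are from RefSeq tables of GRCm38.p6, and shared sequence is the percent of 50-base stretches of a gene's longest transcript found in transcripts of other genes. Such genes are uncertain, since their reads may be split. The script was tested on simulated data. Python 3.11.15, numpy 2.4.6, pandas 2.3.3 and matplotlib 3.10.9 served the other steps. Alternatives were other pseudocounts, filters, scalings, limma without a trend, a 3-group fit, a replicate block and each sample left out. Other sequencing and assays of the study were not analysed here.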

Additional observations from a re-analysis of the deposited data

Results flagged for a closer look

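Of 558 sets of 5 values tested (the genes named in the text in each group and whole-library values), 36 had a sample whose gap to the nearest other exceeded 0.71 of the range, where chance alone flags about 1 in 20 sets (27.9 of 558). Gpx1 in control sample 1 was at 469 FPKM with the nearest other control sample at 64.3 FPKM, C5ar1 in miR-451a sample 5 at 19.7 FPKM with the nearest at 158 FPKM, and Egr2 in control sample 5 at 6.93 FPKM with the nearest at 31.1 FPKM. In control sample 1 the values apart, in FPKM, were Il10ra at 16.5 (nearest 14.4) and Ly6c2 at 0.0308 (nearest 0). In control sample 2 the values apart, in FPKM, were Cab39 at 31.2 (nearest 29.3) and Cd44 at 48.2 (nearest 51.2). In control sample 3 the values apart, in FPKM, were Ctsk at 53.4 (nearest 56.7), Fcgr2b at 166 (nearest 154), Gpr34 at 0.235 (nearest 0.130) and Il12a at 0.0437 (nearest 0). In control sample 4 the values apart, in FPKM, were Cd36 at 221 (nearest 199), Fcgr4 at 82.2 (nearest 74.7), Gm15523 at 0.0467 (nearest 0), Pecam1 at 0.122 (nearest 0.207) and Psmb8 at 18.5 (nearest 21.9). In control sample 5 the values apart, in FPKM, were Adipoq at 17.7 (nearest 21.6) and Lipn at 46.6 (nearest 52.7). In miR-451a sample 1 the values apart, in FPKM, were Ccl17 at 0.0658 (nearest 0), Cebpd at 8.32 (nearest 6.56), Cxcl12 at 8.66 (nearest 4.44) and Ly6c2 at 0.403 (nearest 0.128). In miR-451a sample 3 the value apart, in FPKM, was Spint2 at 0.0515 (nearest 0.0159). In miR-451a sample 4 the values apart, in FPKM, were Actb at 904 (nearest 740.4), Gbp2 at 19.3 (nearest 20.8) and Gbp9 at 8.50 (nearest 10.48). In miR-451a sample 5 the values apart, in FPKM, were Abcg1 at 62.1 (nearest 57.6), B2m at 2402 (nearest 2209), Cd36 at 37.96 (nearest 42.2), Cxcr4 at 199 (nearest 175) and F10 at 2.36 (nearest 1.73). In miR-451a sample 5 also the values apart, in FPKM, were Fcgr1 at 129 (nearest 117), Lipn at 0.883 (nearest 0.430), Nfkbia at 54.7 (nearest 48.003), Psmb5 at 51.03 (nearest 46.5) and Tap1 at 16.9 (nearest 13.3).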

How the results depend on the processing

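The number of genes called fell to 4732, 3010 of them higher, with a minimum mean of 5 FPKM, which tests fewer genes. Median centring gave 3485 higher and 3679 lower genes. Genes higher by at least 2-fold numbered 835 with a pseudocount of 0.1 and 859 after rescaling to TPM. The median log2 fold change was 0.019 without a filter, -0.013 with median centring, 0.006 after quantile normalization and 0.229 after rescaling to TPM, and the share of genes without overlap was 29.1% without a filter. With each sample left out in turn, 7415 to 7590 genes were called, 5136 to 5301 higher and 2228 to 2350 lower, 932 to 970 by at least 2-fold (538 to 572 higher, 384 to 400 lower), with a median log2 fold change of 0.128 to 0.138 and 56.8% to 58.3% of genes without overlap. Reversed directions were those of Lpl with median centring (-0.0149, adjusted p = 0.784 from limma) and, after quantile normalization, of Ftl1 (0.2341) and mt-Co1 (0.3619). Gm22133 lost its difference there (0, adjusted p = 1). The cause was not tested. Of the gene values under the alternatives, 6804 kept direction and side of the threshold, 81 lost a call, 50 gained one and 24 uncalled ones changed sign. List counts stayed within 1.5 times in 1560 cases and moved in 80. The numbers 1 to 5 are not said to mark shared mice. Deviations of samples with the same number correlated by 0.154, 0.0751, 0.0585, 0.263 and 0.134, all positive (mean 0.137, against -0.0341 between other numbers). Deviations cancel within each group, so the latter mean follows from the former and is no separate comparison. In 2 of the 5 pairs each sample correlated best with its own number. The numbers were not taken as pairs in the main fit, as 2 of the correlations were under 0.1, a limit set here without a test. That choice does not show that the samples are unpaired. With the replicate block 7804 genes were called (5370 higher, 2434 lower), 949 by at least 2-fold (550 higher, 399 lower). Under the block these genes of the text also passed, Spi1 (0.112, adjusted p = 0.0169 from limma), Akt1 (0.0769, adjusted p = 0.028), Trf (0.184, adjusted p = 0.00381), Tlr4 (-1.17, adjusted p = 0.0483), Gapdh (-0.174, adjusted p = 0.041) and the separate entries of Itgam (adjusted p = 0.000353 and 0.0128), and no gene of the text lost its call. Between miR-451a and miR-144 the block left 0 called, with 742 at an unadjusted p under 0.05, and a fit over those 10 samples 0 with 519. Fragment counts were not recovered, so the counting error of low genes is not known.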

Other observations

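Samples numbered 3 and 4 stood together in both groups for several genes. Cd14 was at 36.9, 38.1, 30.8, 28.8 and 39.3 FPKM in control samples 1 to 5 and at 235, 217, 175, 158 and 239 FPKM in miR-451a samples 1 to 5, with samples 3 and 4 the lowest each time. Gas6 was at 113, 110.0, 91.1, 86.9 and 109.7 FPKM in control, again lowest in samples 3 and 4, and at 373, 374, 373, 360.1 and 358 FPKM in miR-451a samples. The labels name no batch or mouse that these samples share.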
